A study of Mus musculus with 7 samples.

Results

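Fshr and Lhcgr encode the receptors for follicle-stimulating hormone (FSH) and luteinizing hormone (LH), and they lie next to each other on mouse chromosome 17. They are 2 of the 21755 protein-coding genes of the GENCODE annotation on the autosomes and chromosome X, and were taken by name. Each gene was examined over its annotated body and 100 kb on each side in the mm10 (GRCm38) assembly. For Lhcgr (ENSMUSG00000024107.7) the body was chr17:88716481-88791990 on the minus strand and the examined region spanned 276 kb. For Fshr (ENSMUSG00000032937.5) the body was chr17:88984952-89200675, also on the minus strand, and the region spanned 416 kb. The bodies were 193 kb apart, and the regions overlapped by 7.04 kb.

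The measurement was ChIP-seq of estrogen receptor β (ERβ, the product of Esr2) in whole ovaries of C57BL/6J mice that endogenously express ERβ, using the antibody PPZ0506. Per the study's methods these mice were offspring lacking Cre from the breeding that gave the knockout. There were 3 ERβ ChIP libraries, each made per the study's methods from 14 ovaries of 7 mice aged 4 to 16 weeks, and 2 libraries of input chromatin from ovaries of the same strain and genotype. The 2 ChIP samples from ERβ knockout ovaries were not analysed here, so signal that does not depend on ERβ is represented by input alone. Pooled whole ovaries do not separate granulosa, theca, luteal and other cells, and the stage of the estrous cycle was not selected. The values are normalised coverage, with a genome mean between 0.362 and 0.370 in the 5 libraries. The sequencing depth behind each value cannot be read from such tracks, and coverage holds no expression values by which the tissue could be checked.

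FSH acts on granulosa cells of the follicle through its receptor, a G protein-coupled receptor with a large leucine-rich extracellular part that signals mainly through cyclic AMP. The LH receptor has the same architecture, is present on theca cells, and appears on granulosa cells of the preovulatory follicle, where it relays the ovulatory surge. In granulosa cells ERβ is the main estrogen receptor. It binds DNA as a dimer at the estrogen response element (ERE), 2 copies of the half-site GGTCA that face each other across 3 bases, and it can also be brought to DNA through other factors.

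A site was a run of 200-bp windows in which ChIP signal was over 4 times the mean of both inputs in 2 or more ChIP libraries, the input being set to at least its genome mean. Windows within 200 bp of each other formed 1 site. In the Lhcgr region 4 of 1376 windows were called and formed 2 sites, and in the Fshr region 5 of 2078 windows were called and formed 3 sites. Of all 12796535 windows of the genome, 0.0444% were called. Site density was 7.26 per Mb around Lhcgr and 7.22 per Mb around Fshr, against 1.57 per Mb over the genome. When each input was set against the other, no window of either region exceeded 4-fold, where 0.000461% (Input replicate 1) and 0.000742% (Input replicate 2) of all windows did so.

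The 5 sites differed in where they lay. One Lhcgr site was centred 140 bp downstream of the gene start, in coding exon 1 of 11, and reached into intron 1. The other Lhcgr site was intergenic, 72.8 kb upstream of the gene start, and the closest annotated start there was that of the processed pseudogene CT009630.1 at 8.17 kb. All 3 Fshr sites lay in intron 1 of 9, at 10.7, 22.7 and 55.7 kb downstream of the gene start. For 4 of the 5 sites the nearest gene start was that of the receptor gene itself, and for all 5 it was the nearest protein-coding one. The other protein-coding genes whose bodies reached into the Lhcgr region, Ston1 (an endocytic adaptor) and Gtf2a1l (a germ-cell form of a general transcription factor), held no site. The sequences of the 200 bp at each summit are shown because they were not used to call the sites. They are given 5′ to 3′ on the plus strand of mm10, whereas both genes are read from the minus strand. Capitals mark the best match to the ERE and every half-site, GATA or AP-1 match.
Lhcgr exon 1 site, chr17:88791751-88791950: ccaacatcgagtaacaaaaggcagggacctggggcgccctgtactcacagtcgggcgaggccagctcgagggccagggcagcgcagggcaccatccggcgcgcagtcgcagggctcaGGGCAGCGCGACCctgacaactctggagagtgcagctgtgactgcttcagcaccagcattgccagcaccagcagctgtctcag
Lhcgr upstream site, chr17:88864691-88864890: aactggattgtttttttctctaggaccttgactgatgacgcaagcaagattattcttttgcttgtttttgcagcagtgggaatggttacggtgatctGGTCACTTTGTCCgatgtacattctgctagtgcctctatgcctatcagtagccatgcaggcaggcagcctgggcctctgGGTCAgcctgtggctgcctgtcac
Fshr 11-kb site, chr17:89189831-89190030: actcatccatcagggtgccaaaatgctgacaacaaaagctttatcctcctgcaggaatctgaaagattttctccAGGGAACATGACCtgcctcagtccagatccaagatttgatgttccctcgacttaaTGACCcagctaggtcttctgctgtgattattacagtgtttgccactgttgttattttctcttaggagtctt
Fshr 23-kb site, chr17:89177881-89178080: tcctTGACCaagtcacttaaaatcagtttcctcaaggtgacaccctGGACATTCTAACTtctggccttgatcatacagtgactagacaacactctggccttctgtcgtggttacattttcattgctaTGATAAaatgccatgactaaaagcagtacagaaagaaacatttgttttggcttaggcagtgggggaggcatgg
Fshr 56-kb site, chr17:89144861-89145060: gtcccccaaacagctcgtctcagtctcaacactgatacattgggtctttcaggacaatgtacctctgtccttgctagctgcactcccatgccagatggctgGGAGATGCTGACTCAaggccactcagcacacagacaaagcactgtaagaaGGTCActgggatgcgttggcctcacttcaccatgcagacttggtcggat

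The upstream Lhcgr site held the closest match to an ERE. Its match, GGTCACTTTGTCC at chr17:88864788-88864800, lay 4 bp from the site centre and departed from the consensus at 1 of the 10 fixed bases (A11T, consensus base first and positions counted from the 5′ end of the match). A second half-site lay 79 bp from the centre. The exon 1 site had a match with 2 mismatches (T3G and T9C), 24 bp from the centre, and no intact half-site.

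None of the 3 Fshr sites held an ERE with at most 2 mismatches. Their best matches had 3 mismatches each, and each contained at least 1 intact half-site within its 200 bp. In the 56-kb site an AP-1 motif (TGACTCA or TGAGTCA, both strands searched) lay 13 bp from the centre and overlapped the best ERE match. In the 23-kb site a GATA motif (AGATAA or TGATAA) lay 31 bp from the centre. In the 11-kb site a pair of half-sites lay 15 and 32 bp from the centre. No site at either gene held an exact match to the NR5A motif (TCAAGGTCA or CCAAGGTCA, which contains the ERE half-site) or the FOXO motif (TGTTTAC).

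Set against the genome, an ERE with at most 2 mismatches was in 2 of the 5 sites, in 69.2% of all 4019 sites called the same way and in 6.67% of all 200-bp windows. With at most 1 mismatch it was in 1 of the 5, in 34.8% of all sites and in 0.529% of windows. A half-site was in 4 of the 5 sites, in 86.0% of all sites and in 26.5% of windows. AP-1 and GATA were each in 1 of the 5, compared with 6.44% and 29.4% of all sites and 3.11% and 24.1% of windows. The exact NR5A and FOXO motifs, absent from the 5, were in 7.241% and 5.001% of all sites and 0.6928% and 2.979% of windows. Most sites of the genome thus lacked them too, and their absence cannot be read as particular to these genes. The 5 sites are too few for shares of their own to be read as more or less frequent. Sequence that the assembly marks as repeats made up 12% of the upstream Lhcgr site and of the 23-kb Fshr site and none of the other 3. GC content was 65.5% in the exon 1 site, 49.5% in the upstream site and 43.0 to 53.0% in the Fshr sites.

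**Figure D1:**
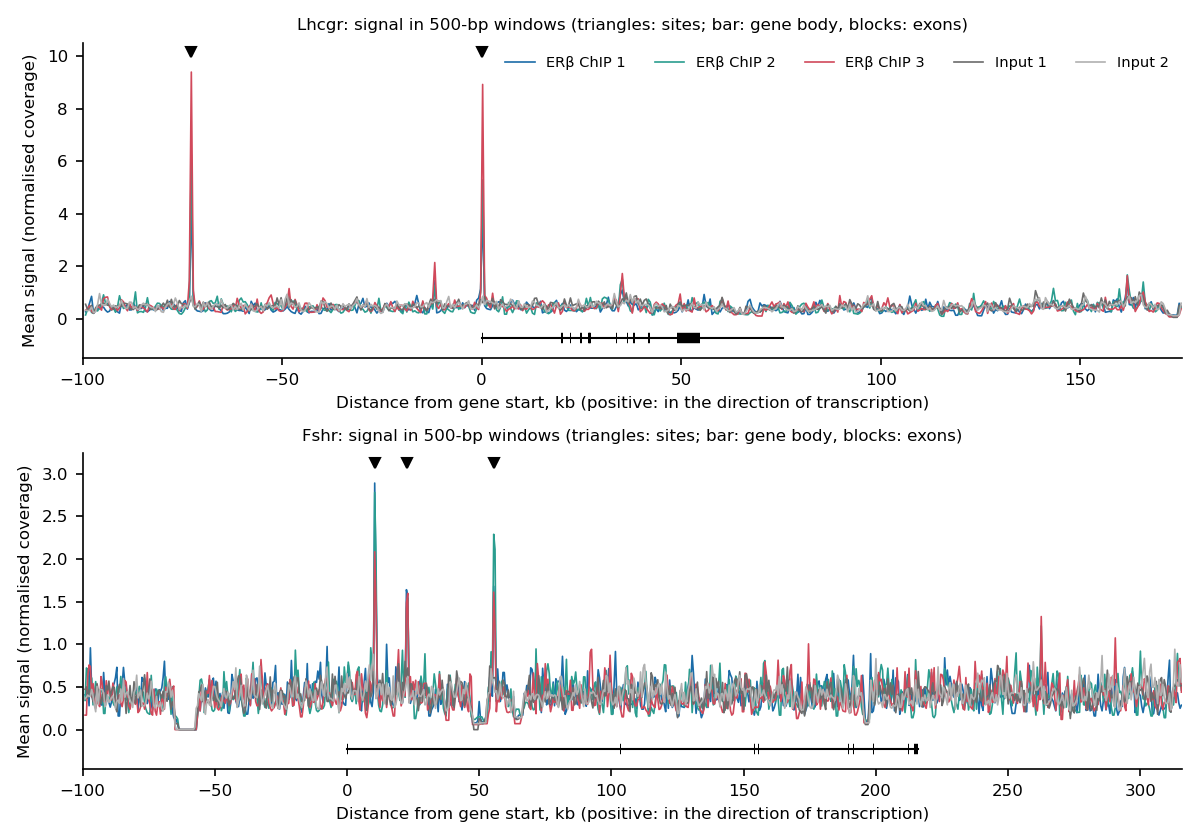
Mean signal (normalised coverage) in 500-bp windows against distance from the gene start in kb, positive in the direction of transcription, for each of the 3 ERβ ChIP and 2 input libraries. Triangles mark the called sites, the bar the gene body and blocks the exons. The 2 Lhcgr sites stand out at 72.8 kb upstream and at the gene start, and the 3 Fshr sites cluster between 10.7 and 55.7 kb downstream. The y axes differ between panels.

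The 2 Lhcgr sites were of nearly equal height. At the exon 1 site the signal was 7.64, 10.02 and 16.4 in ChIP replicates 1, 2 and 3, and 0.759 and 1.06 in the inputs. The fold over the mean input was 8.38, 10.99 and 18.0, or 12.5 ± 4.98 (SD, n = 3). At the upstream site the signal was 7.58, 11.7 and 16.5 in the ChIP libraries and 0.829 and 0.985 in the inputs, with folds of 8.36, 12.9 and 18.2, or 13.2 ± 4.91 (SD, n = 3). At both sites replicate 3 was the highest ChIP library and replicate 1 the lowest, and every ChIP value lay above both inputs. The difference between their mean folds was smaller than the spread between replicates of either. Among all 4019 sites the upstream site ranked 601 and the exon 1 site 676 by mean fold, where the median fold was 6.96.

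At Fshr the 3 intronic sites were lower and differed among themselves. At the 11-kb site the signal was 5.56, 6.80 and 4.01 in ChIP replicates 1, 2 and 3, and 0.580 and 0.630 in the inputs, a fold of 9.02 ± 2.32 (SD, n = 3). At the 56-kb site it was 3.91, 6.24 and 3.23 in the ChIP libraries against 0.748 and 0.480, a fold of 7.26 ± 2.57. At the 23-kb site it was 3.06, 3.99 and 3.71 against 0.688 and 0.769, a fold of 4.92 ± 0.653. Every ChIP value again exceeded both inputs, and replicate 2 was the highest library at all 3 sites. By mean fold they ranked 1252, 1871 and 3341 of 4019. In order of mean fold over both genes the sites ran from the upstream and exon 1 sites of Lhcgr to the 11-kb, 56-kb and 23-kb sites of Fshr. Each pair of neighbours in that order differed by less than the larger of their SDs. These SDs are spreads between libraries that all sites share, not spreads of the differences. Within Fshr the order was the same in every ChIP library, whereas the 2 Lhcgr sites and the 11-kb site changed places between libraries. These folds come from the libraries that called the sites and are descriptions without a test.

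The 23-kb Fshr site was the one closest to the threshold. Its single called window had folds of 3.39, 4.08 and 4.12 in ChIP replicates 1, 2 and 3, and at the summit all 3 libraries exceeded 4-fold, the lowest at 4.20. The nearest windows outside the threshold belonged to Lhcgr. One, at chr17:88803601-88803800 upstream of the gene, had folds of 3.83, 3.11 and 5.33, and the other, at chr17:88756801-88757000 in intron 7 of 10, had 2.74, 3.54 and 5.28. Both passed in ChIP replicate 3 only, and they were the only windows to do so in a single library among 3401 windows away from the sites.

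Each library was also read in windows of the fixed grid that were over 4-fold in both other ChIP libraries. At the 5 sites 7 of 8 such windows were also over 4-fold in replicate 1, where 75% were over the genome. In replicate 2 it was 7 of 7, against 94% over the genome, and in replicate 3 it was 7 of 8, against 89.3%. The windows that fell short were that of the 23-kb Fshr site, at 3.39 in replicate 1, and the second window of the 56-kb Fshr site, at 3.83 in replicate 3. The inputs were the same in the call and in this reading.

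**Figure D2:**
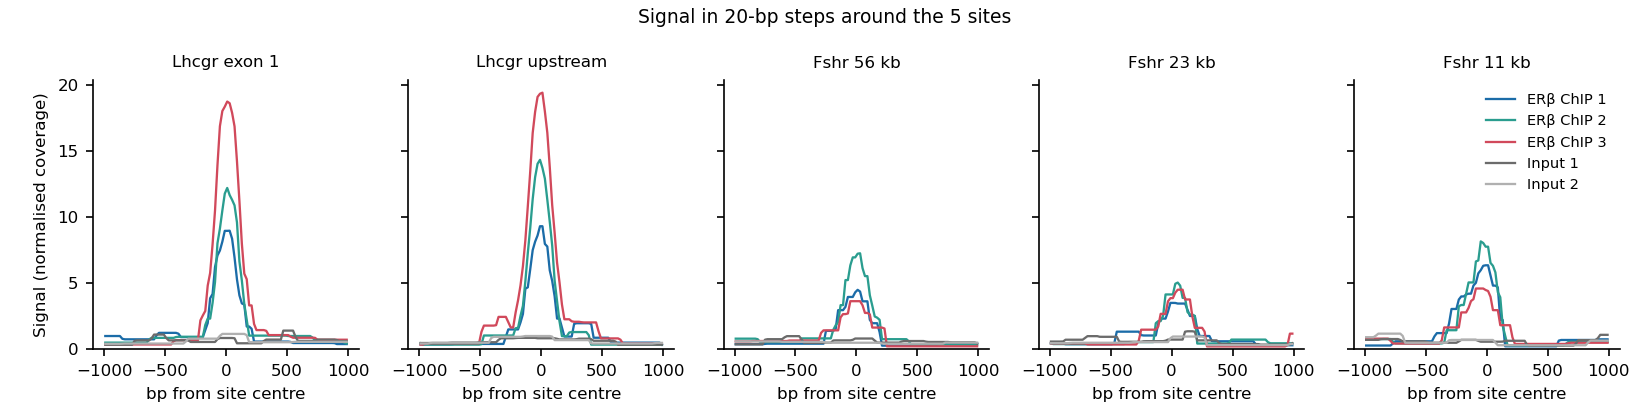
Signal (normalised coverage) in 20-bp steps from 1 kb before to 1 kb after the centre of each of the 5 sites, in the direction of transcription, for each library on a common y axis. ChIP replicate 3 is the highest library at both Lhcgr sites and replicate 2 at the 3 Fshr sites, and the inputs stay near the baseline.

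The sites were narrow. The half-height width in single libraries was 200 to 220 bp at the Lhcgr sites and 240 to 360 bp at the Fshr sites, and the maxima of single libraries lay within 50 bp of the common centre. The distance from the exon 1 site to the upstream site was 72.9 kb, and the Fshr sites were 11.95 and 33.0 kb apart.

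**Figure D3:**
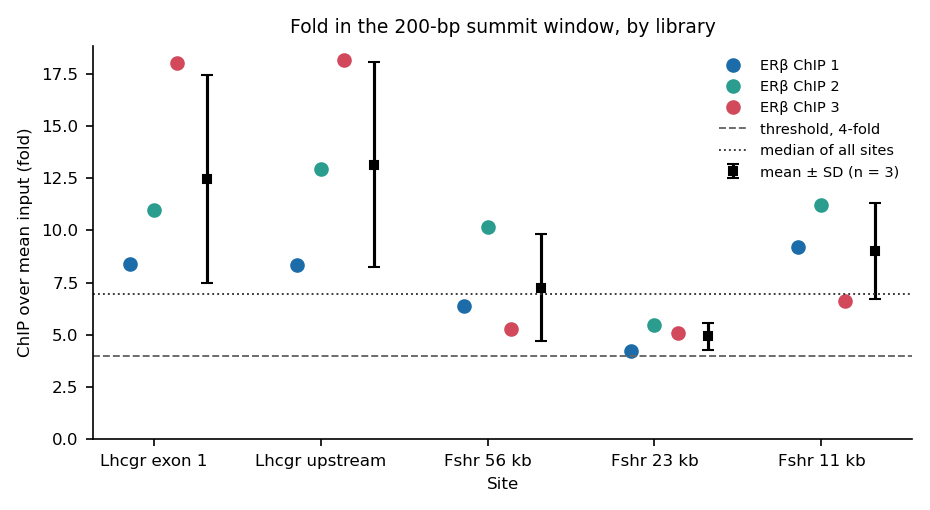
Fold of ChIP over mean input in the 200-bp summit window of each site, one point per ChIP library, with the mean and SD (n = 3) as black squares and bars. The dashed line is the 4-fold threshold and the dotted line the median mean fold of all 4019 sites, 6.96. The 2 Lhcgr sites and the 11-kb and 56-kb Fshr sites have means above the dotted line, and the 23-kb site has its mean of 4.92 below it.

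The receptors were ordered differently in different libraries. In ChIP replicate 1 the 11-kb Fshr site was the highest of the 5 at 9.19-fold, above 8.38 and 8.36 at the Lhcgr sites. In replicate 2 it stood at 11.2, between 12.9 and 10.99 at the Lhcgr sites. In replicate 3 it stood at 6.62 against 18.0 and 18.2. The fold in replicate 3 over that in replicate 1 was 2.15 at the exon 1 site and 2.17 at the upstream site of Lhcgr, and 0.720, 0.827 and 1.21 at the 11-kb, 56-kb and 23-kb sites of Fshr. Over all 4019 sites this ratio had a median of 1.24 and a 5th to 95th percentile range of 0.632 to 2.41. The Lhcgr sites lay above 92.4% and 92.6% of all sites, and the 11-kb, 56-kb and 23-kb Fshr sites above 8.36%, 14.1% and 47.1%. ChIP replicates 2 and 3 carry an RI number in their track names that replicate 1 lacks, and what it marks is not stated in the sources used here. Between those 2 alone, the fold in replicate 3 over that in replicate 2 was 1.64 and 1.40 at the exon 1 and upstream Lhcgr sites, against 0.589, 0.518 and 0.931 at the 11-kb, 56-kb and 23-kb Fshr sites and a median of 0.979 over all sites. Without replicate 3 the mean fold of the strongest site was 10.7 for Lhcgr and 10.2 for Fshr, where with all libraries it was 13.2 and 9.02. What separated the libraries was not tested, and pools of ovaries and library preparation cannot be told apart here.

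**Figure D4:**
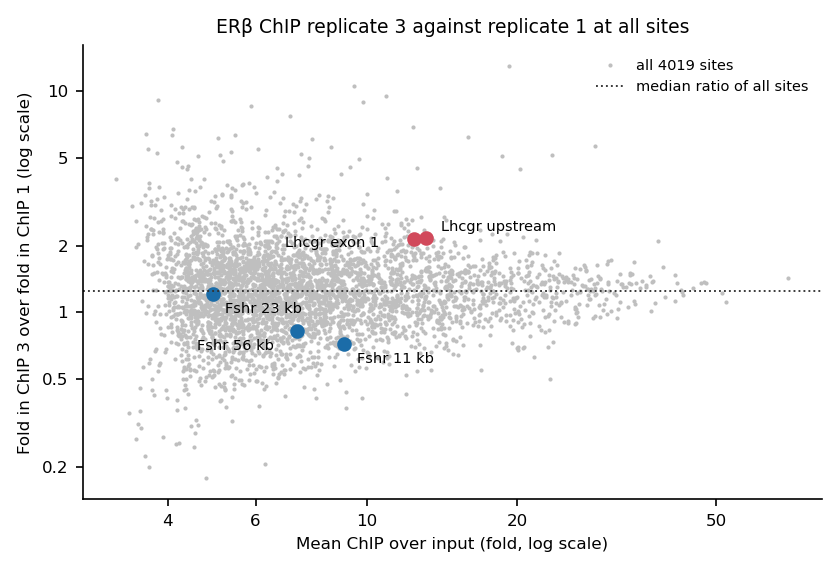
Fold in ERβ ChIP replicate 3 over fold in replicate 1 against the mean fold over the 3 ChIP libraries, both on log scales, for all 4019 sites (grey), with the 2 Lhcgr sites in red and the 3 Fshr sites in blue. The dotted line is the median ratio, 1.24. The Lhcgr sites lie above the line at ratios of 2.15 and 2.17, and the Fshr sites lie below it, at 0.720 to 1.21.

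A test over the whole genome asked in which 1-kb windows ChIP differed from input. It was a limma fit of log2(signal + 0.5) with Benjamini-Hochberg adjustment, on the same libraries that defined the sites. In the Lhcgr region 2 of 273 windows and in the Fshr region 1 of 402 windows had ChIP above input at an adjusted p under 0.05, against 0.0957% of all 2430261 windows, and none in either region had ChIP below input. The 2 Lhcgr windows held its 2 sites. At exon 1 the signal was 2.35, 3.12 and 4.98 in ChIP and 0.717 and 0.700 in input, a log2 difference of 1.67 ± 0.236 (SE, limma adjusted p = 5.24e-05). At the upstream site it was 2.67, 3.398 and 5.30 in ChIP and 0.683 and 0.670 in input, a log2 difference of 1.82 ± 0.236 (SE, limma adjusted p = 9.92e-06). All 3 ChIP libraries lay above both inputs in both windows.

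The Fshr window that passed held the 11-kb site. Its signal was 1.38, 1.59 and 1.16 in ChIP and 0.480 and 0.382 in input, a log2 difference of 1.01 ± 0.176 (SE, limma adjusted p = 0.00198). The windows of the 23-kb and 56-kb sites did not pass, with log2 differences of 0.69 ± 0.171 (limma adjusted p = 0.156) and 0.67 ± 0.180 (limma adjusted p = 0.339), although ChIP was above input in all 3 libraries. The grid divided each Fshr site between 2 windows. With the grid shifted by 500 bp, all 3 sites passed, at log2 differences of 1.37 ± 0.195 for the 11-kb site (limma adjusted p = 4.06e-05), 1.05 ± 0.192 for the 56-kb site (limma adjusted p = 0.0037) and 0.83 ± 0.184 for the 23-kb site (limma adjusted p = 0.0493). The call of the 11-kb window on the original grid was lost without ChIP replicate 2 (limma adjusted p = 0.0558), without Input replicate 1 (limma adjusted p = 0.0574) and without Input replicate 2 (limma adjusted p = 0.490), whereas the Lhcgr windows passed without any 1 of the libraries. With windows of low signal kept in the fit, no window of either region passed. Windows at the sites hold the values that called the sites, so their p-values are not independent evidence for those sites.

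**Figure D5:**
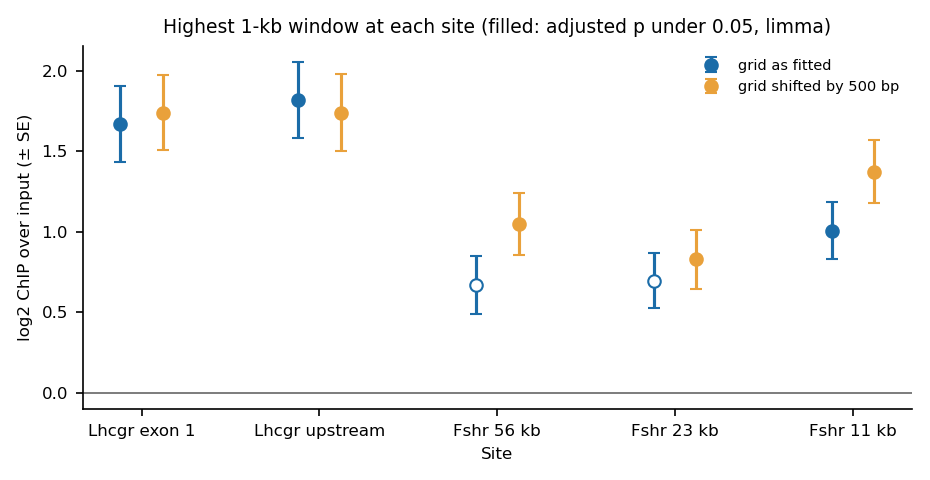
Log2 difference of ChIP over input with its SE (limma, 3 ChIP and 2 input libraries) in the 1-kb window with the highest difference at each site, on the grid as fitted (blue) and shifted by 500 bp (orange). Filled points passed an adjusted p of 0.05. The open points are the 56-kb and 23-kb Fshr sites on the original grid, at 0.67 and 0.69.

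At the promoters, from 1 kb upstream to 100 bp downstream of the gene start, the ChIP level was higher at Lhcgr than at Fshr in every ChIP library. The Lhcgr promoter, which holds part of the exon 1 site, had a signal of 1.37, 1.19 and 1.60 in ChIP replicates 1, 2 and 3 and 0.588 and 0.516 in the inputs. The Fshr promoter had 0.346, 0.595 and 0.461 in ChIP and 0.347 and 0.526 in input. ChIP and input did not overlap at Lhcgr, whose promoter holds values that called the exon 1 site, and overlapped at Fshr. The share of all promoters without such overlap was not computed, so the gap cannot be read as particular to Lhcgr. The log2 difference was 0.84 ± 0.158 at Lhcgr (SE, limma adjusted p = 0.399) and 0.05 ± 0.163 at Fshr (SE, limma adjusted p = 0.923). In the same limma fit 0% of the 21755 promoters had ChIP above input after adjustment, and 356 did at an unadjusted p under 0.05. The fit over promoters thus called no gene as above input, and it called 1 as below input. By log2 difference the Lhcgr promoter ranked 93 of 21755 and the Fshr promoter 3811, and the median over all promoters was -0.12. Outside the site, with 500 bp left out on each side, the rest of the Lhcgr promoter had 0.781, 0.504 and 0.348 in ChIP and 0.438 and 0.408 in input, and the groups overlapped. In the RefSeq promoter sequences of GRCm38.p6, which span 250 bases before to 50 after the RefSeq start, intact half-sites began at position -121 for Lhcgr and at -228 and -64 for Fshr. The RefSeq start of Lhcgr lies 24 bp upstream of the gene start used elsewhere here, and that of Fshr is the same. A half-site was in 40.6% of 32619 such promoters. An ERE with at most 2 mismatches was in the Lhcgr sequence, not in that of Fshr, and in 11.1% of all.

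Averaged over the gene body, ChIP and input were nearly level at both genes. The Lhcgr body had 0.458, 0.474 and 0.502 in ChIP and 0.487 and 0.474 in input, a log2 difference of -0.0036 ± 0.0390 (SE, limma adjusted p = 0.975). The Fshr body had 0.423, 0.436 and 0.392 in ChIP and 0.407 and 0.401 in input, a log2 difference of 0.02 ± 0.0362 (SE, limma adjusted p = 0.757). Over all 21755 gene bodies limma called 0% with ChIP above input, and 539 at an unadjusted p under 0.05. The median log2 difference over all gene bodies was -0.056. The Lhcgr body lay above 72.5% of them and the Fshr body above 81.8%. Away from the sites the whole Lhcgr region had a ChIP signal of 0.427 ± 0.0156 (SD, n = 3), below the input signal of 0.469 ± 0.00741 (SD, n = 2) and not overlapping it (exact permutation test, two-sided p = 0.1, the smallest that 3 against 2 libraries can give). The share of other regions of the genome with such a gap was not computed, so the gap cannot be read as particular to Lhcgr. With the sites included, the Lhcgr difference shrank from -0.0414 to -0.0187 and the groups overlapped (exact permutation test, two-sided p = 0.4). The Fshr region had a ChIP signal of 0.394 ± 0.0103 (SD, n = 3) and an input signal of 0.401 ± 0.00303 (SD, n = 2) (exact permutation test, two-sided p = 0.5). Fshr intron 1 outside its sites had a ChIP signal of 0.3999 ± 0.0208 (SD, n = 3) and an input signal of 0.391 ± 0.00240 (SD, n = 2) (exact permutation test, two-sided p = 0.6). A stretch of 11 windows of 500 bp upstream of Fshr, 58.0 to 63.0 kb from its start, was at 0 in all 5 libraries, and nothing can be read there.

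Sites were also counted at other genes of the gonadotropin pathway. The list of 48 genes held the hormone subunits, related receptors, the cyclic AMP machinery, genes that desensitise the receptors or turn over their mRNA, and genes that respond to FSH or LH. Of these, 23 (47.9%) had a site within the body and 100 kb each side, where 35.8% of all 21755 protein-coding genes did, and 8 (16.7%) had one within the body, where 7.77% of all genes did. The list was drawn up with earlier results of these data known, and gene length was not matched. These shares are therefore descriptions and no evidence of enrichment. By group, sites within the wider span were found for 1 of 3 hormone subunit genes, 2 of 6 related receptors, 7 of 14 coupling and cyclic AMP genes, 3 of 6 genes of desensitisation and mRNA turnover and 10 of 19 responsive genes. Both receptor genes studied here had a site in the body.

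Of the 6 related leucine-rich repeat receptors, 2 (33.3%) had sites, Tshr and Lgr6. Over all protein-coding genes 35.8% had a site in the same span, so this share is near that of any gene. Tshr, the receptor for thyroid-stimulating hormone and the closest relative of the gonadotropin receptors, had 4 sites in its flanks and none in its body. The highest, at chr12:91616811-91617010, lay 232 kb downstream of the gene start, and the gene start nearest to it was not looked up. Its signal was 5.73, 7.15 and 6.15 in ChIP and 0.32 and 0.52 in input, or 15.1 ± 1.73-fold (SD, n = 3). Lgr6, a receptor for R-spondins, had 3 sites in its body, the highest at chr1:135005741-135005940 with 8.999, 12.4 and 12.1 in ChIP and 0.677 and 0.558 in input, or 18.0 ± 3.01-fold (SD, n = 3). Among the responsive genes, body sites of at least 10-fold were in Nr5a1, which encodes steroidogenic factor 1, at 28.1 ± 4.77-fold (SD, n = 3) and 9.97 kb downstream of its start, and in Cyp19a1, which encodes aromatase, at 11.2 ± 1.69-fold (SD, n = 3) and 63.4 kb downstream.

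Genes with a strongest window similar to that of Fshr were found by distance on log2(signal + 0.5) over the 5 libraries. The Fshr window was chr17:89189801-89190000 in the 11-kb site. The nearest genes were Ddah1 at a distance of 0.14 and Cnn3 and Slc44a3, which share a window, at 0.19, and the Ddah1 window had 4.87, 6.79 and 3.62 in ChIP against 5.12, 6.29 and 3.59 at Fshr.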

How the data were processed

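ERβ ChIP-seq of mouse ovary (3 ChIP and 2 input libraries) was analysed. Per the study's methods, reads were aligned with STAR to GRCm38 and uniquely mapped reads processed with HOMER (versions not given in the sources used here). The deposited files hold signal, one coverage track per library, whose names mark it as normalised by the authors in a way not stated in the sources used here; the genome mean of the signal was close, 0.362 to 0.370. How duplicates were treated is not stated in the sources used here, and depth is unknown from such tracks. Exact means of the signal were taken over windows, promoters and gene bodies (GENCODE M21; Python 3.11.15, numpy 2.4.6). Sites followed the 4-fold rule, with summits at 10-bp steps. limma 3.58.1 in R 4.3.3 was fitted to all features on log2(signal + 0.5), which understates changes where signal is low; 1-kb windows needed a mean of 0.1. The fits were run on simulated data with the same noise level for all features, which does not check them on features whose replicates differ more. Groups and replicate numbers came from the sample titles. Per the methods the ChIP libraries were separate pools, and nothing says so of the inputs. Named genes were the 2 receptors, genes overlapping their regions, the 3 genes with the most alike window each (those for Lhcgr are not reported here), listed genes with a body site of at least 10-fold, and related receptors with any site. The genes, lists and tests were chosen with earlier results of these data known. Alternatives changed 1 choice at a time.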

Additional observations from a re-analysis of the deposited data

How the results depend on the processing

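The 2 Lhcgr sites stayed called under every alternative to the rule (window grid, fold, number of libraries, input, its floor, local background and each ChIP library left out) except a flank of 50 kb or the gene body only, which left 1 by excluding the upstream site. At 3-fold Lhcgr had 4 sites, and at 6-fold Fshr had 1, the 11-kb site. The 23-kb Fshr site was lost when all 3 libraries had to pass. It was also lost without ChIP replicate 2 or 3, where both remaining libraries had to pass and its window stood at 3.39-fold in replicate 1. The strongest fold moved by less than 1 SD under every setting run (9.63 to 15.6 for Lhcgr, 7.12 to 10.2 for Fshr), although the strongest Fshr site was the 56-kb one with Input replicate 2 alone, and the strongest Lhcgr site was exon 1 with Input replicate 1 alone and with the longer of the other window lengths tried. A window in Lhcgr intron 7 made a further site with Input replicate 2 alone, with the grid shifted by 100 bp and, added after seeing the data, with the input of the same kind of track name. An ERE was in 1 of the 5 sites with at most 1 mismatch and in 0 with none, and counting the body only, 8 pathway genes had a site in place of 23. With nothing left out, ChIP minus input was 0.0014 in the Fshr region and -0.0187 in the Lhcgr region.

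In limma, replicate numbers 1 and 2 are shared between ChIP and input, but nothing says that they mark a common pool. Same-numbered libraries correlated at 0.0361 and -0.0111 in their deviations over 1-kb windows. With the replicate block, 3 Fshr windows passed in place of 1, the Lhcgr windows stayed at 2, and 17 promoters had ChIP above input in place of 0. As no input has number 3, the block fit took its ChIP difference from replicates 1 and 2 alone. At the 1-kb window of the Lhcgr exon 1 site the log2 difference was 1.41, as it was without ChIP replicate 3. Without the filter on low signal, 670 windows of the genome passed in place of 2325, with 0 at Lhcgr and 0 at Fshr, and the cause was not tested. The shifted grid gave 3 at Fshr. Leaving out 1 library gave 1004 to 2538 windows over the genome, 0 to 1 at Fshr and 2 at Lhcgr. It gave 1 to 12 promoters and 0 to 2 gene bodies with ChIP above input, -0.093 to 0.18 at the Fshr promoter and -0.021 to 0.011 at the Lhcgr body, where the sign changed. A pseudocount of 0.1 gave 1 promoter. A batch term from the track names, added after seeing the data, turned the Fshr promoter to -0.00041. With depth unknown, replicates alone set the precision.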

Other observations

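The 3 Fshr sites were the last ones on chromosome 17. Of its 175 sites, 170 lay to the left of the 2 regions and 0 to the right, leaving 5.80 Mb from the 11-kb Fshr site to the end of the chromosome without a call. On the other side the nearest site was 303 kb from the Lhcgr exon 1 site, at chr17:88488701-88488900, with a mean fold of 5.84. Between the upstream Lhcgr site and the 56-kb Fshr site no window was called over 280 kb.

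Among the listed pathway genes, the highest fold within 100 kb stood beside Cyp11a1, which encodes the side-chain cleavage enzyme that starts steroid synthesis, at 52.4-fold, while the highest within its body was 5.39. This gene was chosen after its values were seen. In all, 2811 of 21755 protein-coding genes (12.9%) had at least 2 sites within the body and 100 kb each side, as Lhcgr did, and 1116 (5.13%) had at least 3, as Fshr did. Within the body, 129 genes (0.593%) had at least 3 sites. Gene length was not matched, and the Fshr body alone spanned 216 kb, so these shares do not say how unusual either gene is.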
